A study of Mus musculus with 3 samples.

Results

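The cells described here were chosen from sorted mouse heart cells by the transcripts they carried and are called classical monocytes. Many of them also held macrophage transcripts, so the name is that of the rule given next. A cell counted as a monocyte when at least 3 of the 5 genes Ly6c2, Plac8, Chil3, Hp and Ms4a4c had at least 1 unique molecular identifier (UMI, a count of 1 captured transcript). S100a8 and S100a9 together had to stay under 0.3% of its UMIs, and fewer than 2 of the lymphocyte genes Cd3e, Ncr1, Klre1 and Cd79a could be detected. The rule was met by 289 of 10171 cells past the quality limits, a minimum of 1000 UMIs and of 200 genes and a maximum of 10% of UMIs from mitochondrial genes. They are set against 7846 cells outside the rule in which the complement genes C1qa, C1qb and C1qc took at least 0.3% of UMIs, called C1q cells. The 5 chosen genes, the limiting genes and the C1q genes are given as a description, with no test.

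Hearts were taken from wild type mice 32 to 34 weeks old that were fed a Western diet (WD), a high fat diet (HFD) or a control diet (CD). No transgene or deletion is named in the labels. All 3 groups were flushed, digested with collagenase and sorted for the leukocyte protein CD45, the macrophage protein F4/80 and the myeloid protein CD11b, so that the cells are those monocytes that passed a macrophage sort. Each diet has 1 droplet-based 3′ library; how many mice it pools and what the diets contained were not given. A difference between diets therefore has no replicate check, and no test between diets was made.

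Classical monocytes are blood leukocytes made in the bone marrow, marked in mice by the surface protein Ly6C and by CCR2, the receptor for the chemokine CCL2 that calls them out of marrow and blood. In tissue they can turn into macrophages, losing Ly6C while they gain MHC class II or macrophage genes. The heart also holds long-lived resident macrophages, known for Timd4, Lyve1 and Folr2, and C1q is made by macrophages rather than by classical monocytes.

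The genes that define the cells lie on 5 chromosomes of the mouse genome (build GRCm38). Ly6c2, which encodes Ly6C, is at chr15:75108158-75111970 on the minus strand. Plac8, a small cysteine-rich protein of myeloid cells, is at chr5:100553725-100572245 on the minus strand. Chil3, a secreted chitinase-like protein also known from alternatively activated macrophages, is at chr3:106147554-106167564 on the minus strand, and Hp, the haemoglobin-binding protein haptoglobin, is at chr8:109575128-109579172 on the minus strand. Ms4a4c, a four-span membrane protein, is at chr19:11404770-11427246 on the plus strand, and the marker Ifitm6, which the rule did not use, is at chr7:141015699-141017924 on the minus strand.

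The bases upstream of Ly6c2 and Plac8 are shown because, among the genes of the rule that matched a promoter entry, these hold a motif of a myeloid factor. The 250 bases before a start site of each, from RefSeq on GRCm38.p6, lie at chr15:75111972-75112221 and chr5:100563097-100563346, both read on the minus strand, 5′ to 3′. Capitals mark GAGGAAG, a motif of the myeloid factor PU.1, in Ly6c2, and TTCTGCAA, the other-strand match to the C/EBP motif TTGCNNAA, in Plac8.
Ly6c2: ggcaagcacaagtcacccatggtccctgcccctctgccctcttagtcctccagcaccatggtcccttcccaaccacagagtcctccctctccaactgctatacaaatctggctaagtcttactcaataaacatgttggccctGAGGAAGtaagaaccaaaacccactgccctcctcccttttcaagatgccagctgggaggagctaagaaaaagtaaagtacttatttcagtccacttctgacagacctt
Plac8: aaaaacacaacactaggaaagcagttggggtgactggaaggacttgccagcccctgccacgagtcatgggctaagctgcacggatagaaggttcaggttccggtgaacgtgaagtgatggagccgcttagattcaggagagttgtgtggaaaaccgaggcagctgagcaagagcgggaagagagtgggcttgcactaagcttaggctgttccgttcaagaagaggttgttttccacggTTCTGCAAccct
The PU.1 motif lay 108 to 102 bases before this Ly6c2 start and the C/EBP motif 12 to 5 bases before this Plac8 start. Each gene had another start site whose window is not shown. That of Ly6c2 held 2 PU.1 matches, 142 to 136 and 8 to 2 bases before its start. That of Plac8, at chr5:100572206-100572455, held none of the 3 motifs searched, so the Plac8 window shown is the one with a match. Over 32851 RefSeq promoter windows searched on both strands, 10.6% held GAGGAAG, 9.56% held TTGCNNAA and 2.98% held an interferon-response (IRF) motif. Chil3, Ms4a4c and Ifitm6 held none of the 3 motifs in this window. A match describes letters only and is not a binding site.

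The WD library held 79269380 UMIs, the HFD library 16630481 and the CD library 17464149, and cells past the quality limits had medians of 11668, 2751 and 4223 UMIs. The authors' alignment software was version 7.2.0 for WD and 3.0.1 for HFD and CD, per the file headers. Of the 6885 WD barcodes, 92 (1.34%) occur in the CD barcode list. HFD and CD shared 15 barcodes of quality cells and WD and CD shared 1, and no monocyte barcode was shared. Stromal cells, which should lack the genes of the rule, numbered 30 in WD, 425 in HFD and 216 in CD, and none of them had 3 or more of these genes.

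Monocytes made up 221 of 4775 WD cells, 5 of 2717 HFD cells and 63 of 2679 CD cells. The shares were 4.63% (95% exact binomial interval 4.05 to 5.26) in WD, 0.184% (0.0598 to 0.429) in HFD and 2.35% (1.81 to 2.999) in CD, and these intervals cover counting error only. Detection of 3 genes depends on depth, and when every cell was thinned to 1000 UMIs the rule found 52 WD, 1 HFD and 25 CD cells. The thinned shares of 1.09% (0.814 to 1.43) in WD and 0.933% (0.605 to 1.37) in CD overlapped in their intervals. The thinned HFD share of 0.0368% (0.000932 to 0.205) stayed below both. The median monocyte had 21973 UMIs in WD, 5835 in HFD and 8050 in CD, against 12033, 2948 and 4279.5 in the C1q cells of the same libraries. Neither the part of the sort gate nor that of depth in the shares was tested. The mitochondrial limit had removed 1686 WD, 367 HFD and 181 CD barcodes before the count.

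**Figure D1:**
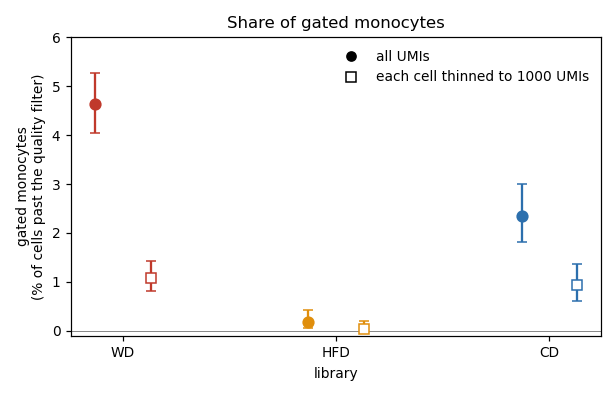
Share of quality cells called monocytes (percent, y axis) in the WD, HFD and CD libraries, at full depth and after thinning each cell to 1000 UMIs, with 95% exact binomial intervals. The full-depth shares are 4.63%, 0.184% and 2.35%, and the thinned WD and CD shares, 1.09% and 0.933%, have overlapping intervals.

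The number of genes of the rule varied between monocytes. In WD, 87 monocytes had 3 of the 5 genes, 71 had 4 and 63 had 5, and in CD the numbers were 13, 25 and 25. In HFD, 4 cells had 3 genes and 1 had 4. Just outside the rule, 155 WD, 26 HFD and 35 CD cells had 2 of the genes. Of the WD monocytes, 98.6% had Ms4a4c, 95.02% Plac8, 76.0% Ly6c2, 69.7% Hp and 49.8% Chil3. In CD, 95.2% had Plac8, 85.7% Ms4a4c, 81.0% Ly6c2, 79.4% Hp and 77.8% Chil3. The neutrophil limit left out 39 WD and 4 CD cells with 3 or more of the genes, and the lymphocyte limit left out 3 WD cells.

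Counts were summed over the cells of a group and scaled to CPM, the share of the group's UMIs on a common scale. The genes of the rule were far above the C1q cells in every library, which the choice of cells fixes. Ly6c2 stood at 296 (WD), 391.6 (HFD) and 470.1 CPM (CD) in monocytes, against 5.65, 0.456 and 2.65 CPM in the C1q cells of the same libraries. Plac8 stood at 1029 (WD), 605 (HFD) and 2521 CPM (CD) in monocytes, against 15.98, 6.23 and 38.4 CPM in the C1q cells of the same libraries. Chil3 reached 261 (WD), 107 (HFD) and 608 CPM (CD) in monocytes, against 3.63, 0.760 and 4.11 CPM in the C1q cells of the same libraries. Haptoglobin (Hp) had the smallest gap in WD, with 151 (WD), 35.6 (HFD) and 334 CPM (CD) in monocytes, against 18.8, 2.74 and 15.98 CPM in the C1q cells of the same libraries. Ms4a4c stood at 321 (WD), 605 (HFD) and 457 CPM (CD) in monocytes, against 26.5, 36.2 and 23.8 CPM in the C1q cells of the same libraries. In the CD library, near-empty barcodes, which carry free RNA, held 6.12 CPM of Ly6c2 and 54.8 CPM of Plac8, close to the C1q cells rather than to the monocytes. The exact Poisson intervals of Ly6c2 in monocytes were 283 to 310.1 CPM in WD, 195 to 701 CPM in HFD and 414 to 532 CPM in CD. After thinning to 1000 UMIs, 29.4% of WD monocytes and 0.305% of WD C1q cells had a Ly6c2 UMI, and 56.6% against 0.666% had a Plac8 UMI.

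Ifitm6 and Ccr2, which the rule did not use, were mostly higher in WD and CD cells that carried more of its genes, and Ly6a was not. Ifitm6, an interferon-induced transmembrane protein of the blood monocyte, was at 220 CPM in WD cells with all 5 genes, 108 with 4, 33.6 with 3, 23.2 with 2, 14.9 with 1 and 11.9 with none. Ccr2 was at 413, 433, 220, 193, 141 and 86.2 CPM in the same order. In CD, Ifitm6 took 487 CPM in cells with 5 genes, 253 with 4, 48.2 with 3, 111 with 2, 65.1 with 1 and 35.7 with none. The order was not strict: CD cells with 2 genes were above those with 3 for Ifitm6, and WD cells with 4 were above those with 5 for Ccr2. Ly6a was at 28.5 CPM in WD cells with 5 genes, 26.6 with 4, 120 with 3, 36.5 with 2, 15.002 with 1 and 11.2 with none. In CD cells Ly6a was at 16.1, 124, 67.5, 121, 83.1 and 207 CPM in the same order, lowest in cells with 5 genes. In HFD, Ifitm6 had no UMI in the 5 cells with 3 or 4 genes, against 126 CPM with 2, 49.8 with 1 and 38.1 with none. Depth per cell also differs between these classes, and its part was not tested.

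**Figure D2:**
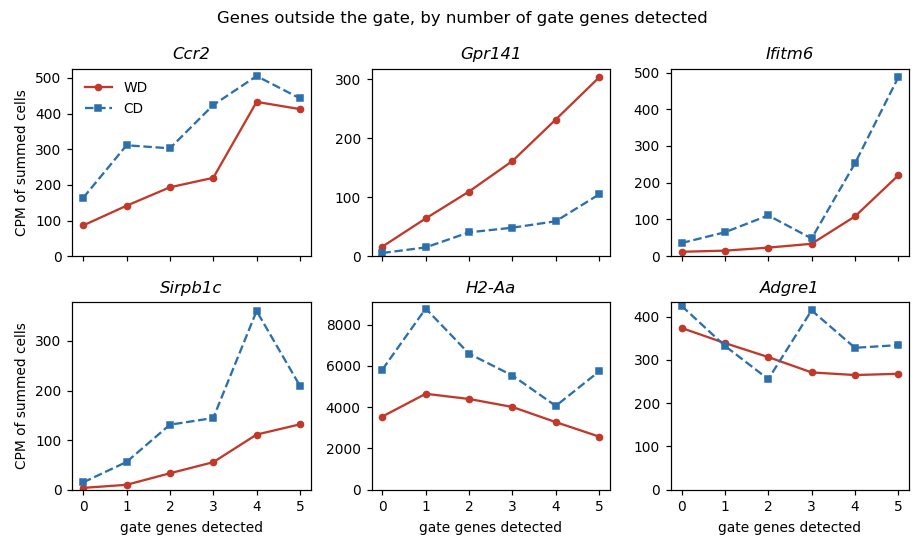
Summed level (CPM, y axis) of Ccr2, Gpr141, Ifitm6, Sirpb1c, H2-Aa and Adgre1 in cells carrying 0 to 5 of the genes of the rule (x axis, called gate genes there), for WD and CD. Ifitm6 is highest in cells with 5 genes in both libraries.

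Across the 3 libraries, each monocyte sum was paired with the C1q-cell sum of its own library and tested with edgeR's quasi-likelihood test over 10950 genes, with adjusted p-values (Benjamini-Hochberg) under 0.05 called. In monocytes 512 genes rose (4.68% of those tested) and 418 fell (3.82%; 8.49% in either direction), around a median log2 change of -0.04. Among the lists, 11 of 20 homing and adhesion genes rose and 14 of 15 resident macrophage genes fell, and versican (Vcan) was fitted at 67.2-fold the C1q cells' level. DESeq2 called 82 higher and 16 lower, and without the library block edgeR called none (143 higher and 113 lower at an unadjusted p under 0.05). With DESeq2's size factors, edgeR called 443 higher and 691 lower. Without WD, which supplies most of the UMIs, 62 genes were higher and 28 lower, and without CD 654 and 717. The fit gave all genes 1 shared trend of spread, so its p-values do not hold a spread estimated for each gene.

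Receptors for homing came first by role. Ccr2 had 342 (WD), 1424 (HFD) and 461 CPM (CD) in monocytes, against 76.7, 199 and 185 CPM in the C1q cells of the same libraries. Every monocyte sum was above every C1q sum, and the log2 change was 1.88 ± 0.21 (SE; adjusted p = 4.9e-17, edgeR). The 28089 UMIs of the HFD monocytes make 1 count worth 35.6 CPM and 3 counts 107 CPM. Itgb7, the beta 7 integrin chain, had 52.9 (WD), 142 (HFD) and 94.8 CPM (CD) in monocytes, against 8.87, 8.21 and 11.5 CPM in the C1q cells of the same libraries, with a log2 change of 2.77 ± 0.23. Itgal, the alpha chain of the integrin LFA-1, changed by 2.47 ± 0.23. Of 20 homing and adhesion genes tested, 11 rose and 0 fell, 8 were higher by DESeq2, and without WD 6 of 19 were higher.

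Secreted and matrix-binding proteins followed. Vcan, the proteoglycan versican made by classical monocytes, had 199.6 (WD) and 18.6 CPM (CD) in monocytes, against 2.78 and 0.274 CPM in C1q cells, and the HFD monocytes had none. The CD value rests on 10 UMIs and the WD value on 1280, and the log2 change was 6.07 ± 0.30. F10, coagulation factor X, had 71.4 (WD) and 48.3 CPM (CD) in monocytes, against 3.52 and 5.11 CPM in C1q cells, a log2 change of 3.95 ± 0.27. Thrombospondin 1 (Thbs1), a platelet and monocyte adhesion protein, stood at 389 (WD), 71.2 (HFD) and 46.4 CPM (CD) in monocytes, against 50.2, 1.98 and 7.58 CPM in the C1q cells of the same libraries, and rose by 2.88 ± 0.25. Fibronectin (Fn1) stood at 469 (WD), 214 (HFD) and 321 CPM (CD) in monocytes, against 83.0, 43.8 and 67.3 CPM in the C1q cells of the same libraries, and rose by 2.31 ± 0.22. Both WD and CD sums of these 4 genes lay above those of the C1q cells. Of 9 granule and secreted antimicrobial genes tested, 3 rose (F10, Pglyrp1 and Slpi) and 2 fell (Lcn2 and F13a1), and DESeq2 called 1 higher.

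Among surface proteins, Sirpb1c, a signal-regulatory protein of myeloid cells, had 94.98 (WD), 427 (HFD) and 249 CPM (CD) in monocytes, against 8.74, 27.97 and 23.1 CPM in the C1q cells of the same libraries. The groups did not overlap, with a log2 change of 3.41 ± 0.20 (adjusted p = 1.2e-64, edgeR). Its near-identical relative Sirpb1b changed by 2.15, and reads of the pair could be split between them by the authors' counting. The orphan receptor Gpr141 had 224 (WD), 178 (HFD) and 78.0 CPM (CD) in monocytes, against 24.4, 14.6 and 6.12 CPM in the C1q cells of the same libraries, with a log2 change of 3.29 ± 0.22. Cd177, a surface protein best known from neutrophils, had 20.4 (WD), 35.6 (HFD) and 53.9 CPM (CD) in monocytes, against 0.560, 0 and 0.639 CPM in the C1q cells of the same libraries, where the HFD monocytes held 1 UMI. Ifitm6 had 111 (WD), 0 (HFD) and 321 CPM (CD) in monocytes, against 13.9, 40.4 and 44.1 CPM in the C1q cells of the same libraries. It was called by edgeR at 2.74 ± 0.20 and not by DESeq2 (adjusted p = 0.0694), and the HFD monocytes lacked it. Ly6a, the stem cell antigen Sca-1 and also an interferon-responsive gene, changed by 2.20 ± 0.22, was not called by DESeq2 (adjusted p = 0.0501) and was lost without WD. Of its 414 UMIs in WD monocytes, 308 were in cells with 3 genes of the rule, and CD cells with 5 genes had 16.1 CPM, below the 39.2 CPM of CD C1q cells.

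Lysozyme 2 (Lyz2), shared by monocytes and macrophages, did not pass the test. It had 10315 (WD), 41439.7 (HFD) and 24276 CPM (CD) in monocytes, against 7747, 21438 and 17818 CPM in the C1q cells of the same libraries, a log2 difference of 0.42 ± 0.20 (adjusted p = 0.22, edgeR). Of the 13 classical monocyte markers tested beyond those of the rule, 12 rose and 0 fell, DESeq2 had 9 higher, and without WD 9 of 12 were higher. Their median log2 change was 2.74 against -0.04 over all genes. In WD and CD, markers that the rule did not use were thus mostly higher than in C1q cells. The markers were chosen with earlier results of these data known, so their rise is no separate check of the label. Of the monocytes, 114 of 221 in WD and 49 of 63 in CD are called C1q-high below. In these, resident macrophage genes summed to 9414 (WD) and 8296 CPM (CD), against 12549 and 15133 CPM in C1q cells. The other monocytes of the same libraries had 2686 (WD) and 2272 CPM (CD). For C1q-high cells the name monocyte is thus only that of the rule, and whether it holds was not tested. In HFD, 6 of the 18 markers listed had no UMI, among them Ifitm6, F10 and Vcan, so the 5 HFD cells carry the label on fewer markers. Those cells hold 28089 UMIs, where 3 counts are 107 CPM, so a marker under that level can be missed.

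Some genes of other monocyte and dendritic states were also called higher. Of 13 nonclassical monocyte genes tested, 9 rose and 1 fell, with 3 higher by DESeq2 and 3 without WD. Ace, the angiotensin-converting enzyme, had 26.8 (WD) and 33.4 CPM (CD) in monocytes, against 1.70 and 2.74 CPM in C1q cells, and Treml4, a receptor of nonclassical monocytes, had 17.8 (WD) and 37.2 CPM (CD) in monocytes, against 2.08 and 2.47 CPM in C1q cells. The scavenger receptor Cd36 fell by 0.68 on the log2 scale. At least 2 nonclassical genes were detected in 70 WD monocytes (31.7%, interval 25.6 to 38.2) and in 19 CD monocytes (30.2%). Of 8 conventional dendritic cell genes tested, 4 rose (Dpp4, Flt3, Cd24a and Cd209a) and 1 fell (Clec10a), and DESeq2 called none. The conventional dendritic list summed to 415 (WD), 142 (HFD) and 238 CPM (CD) in monocytes, against 270, 313 and 286 CPM in C1q cells. Its sum was thus higher in monocytes in WD alone. Of 8 endothelial genes tested, 3 rose (Flt1, Kdr and Ly6c1), with 1 by DESeq2 and none of 9 without WD. The endothelial list summed to 40.4 (WD), 107 (HFD) and 190 CPM (CD) in monocytes, against 16.6, 143 and 78.2 CPM in C1q cells, and the part of endothelial RNA was not tested. At least 2 dendritic genes were detected in 38 WD (17.2%) and 4 CD monocytes (6.35%).

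Other genes rose outside those lists. Napsa, an aspartic protease, had 154 (WD), 178 (HFD) and 305 CPM (CD) in monocytes, against 21.8, 27.8 and 31.9 CPM in the C1q cells of the same libraries, a log2 change of 2.93 ± 0.20. Gngt2, a G protein gamma subunit, had 157 (WD), 391.6 (HFD) and 579.7 CPM (CD) in monocytes, against 32.7, 86.5 and 74.5 CPM in the C1q cells of the same libraries, a change of 2.45 ± 0.21. Emb, the membrane protein embigin, changed by 1.96 ± 0.20 and Tmsb10, which binds actin, by 1.88 ± 0.23. S100a4 and S100a6, calcium-binding proteins of motile leukocytes, changed by 1.39 ± 0.22 and 0.99 ± 0.22. Gpnmb, a glycoprotein of lipid-laden macrophages, changed by 2.34 ± 0.23, on 139, 5 and 81 UMIs in WD, HFD and CD monocytes. Of the 14 genes named as highest, 12 were still called without WD, with Ly6a and Msrb1 lost, and 13 by DESeq2. Msrb1, a methionine sulfoxide reductase, changed by 1.99 ± 0.22.

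Interferon-induced genes were higher, and these calls rest on the WD library. Of 25 type I interferon response genes tested, 18 rose and 0 fell, with a median log2 change of 1.09, but DESeq2 called 2 and edgeR without WD called 1. Ifit1, an RNA-binding antiviral protein, had 75.2 (WD), 71.2 (HFD) and 31.6 CPM (CD) in monocytes, against 13.7, 20.4 and 24.8 CPM in the C1q cells of the same libraries. The ratio of monocytes over C1q cells was 5.50 in WD and 1.27 in CD, and the HFD value rests on 2 UMIs. Irf7, the factor that amplifies interferon production, had 90.8 (WD), 35.6 (HFD) and 145 CPM (CD) in monocytes, against 22.9, 39.4 and 56.5 CPM in the C1q cells of the same libraries, where the HFD monocyte value rests on 1 UMI. Ifit2 changed by 2.05 ± 0.26, Ifi205, a DNA-sensing family member, by 2.53 ± 0.26 and Rsad2 by 1.66 ± 0.23. Of 11 interferon gamma GTPases, 1 rose (Ifi47).

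Resident macrophage genes were lower. Of 15 tested, 0 rose and 14 fell, with a median log2 change of -1.26; DESeq2 called 3 lower, edgeR called 5 without WD and 7 without CD. Pf4, a chemokine stored in platelets and made by resident macrophages, had 902 (WD), 35.6 (HFD) and 2016 CPM (CD) in monocytes, against 1914, 4831 and 4555 CPM in the C1q cells of the same libraries. Its log2 change of -1.87 ± 0.24 was called neither by DESeq2 (adjusted p = 0.995) nor by the robust fit, which lets genes of outlying spread keep more of their own. The folate receptor Folr2 had 274 (WD), 35.6 (HFD) and 416 CPM (CD) in monocytes, against 492, 1087 and 1119 CPM in the C1q cells of the same libraries, and changed by -1.47 ± 0.23. The chemokine Ccl8 had 51.9 (WD), 0 (HFD) and 169 CPM (CD) in monocytes, against 81.8, 677 and 866 CPM in the C1q cells of the same libraries, and changed by -1.69 ± 0.24. Lyve1, the hyaluronan receptor, changed by -1.29 ± 0.24 and the haemoglobin receptor Cd163 by -1.41 ± 0.24. Of the growth factor and scavenger genes, 8 of 15 fell and 2 rose (Marco and Osm), with none called by DESeq2. Retnla, a secreted protein of alternatively activated macrophages, changed by -1.52 ± 0.23, Ltc4s, the leukotriene C4 synthase, by -1.47 ± 0.23, the carbonyl reductase Cbr2 by -1.45 ± 0.23, the lectin Cd209f by -1.39 ± 0.25 and the ion transport regulator Fxyd2 by -1.42 ± 0.23. Of the 10 genes named as lowest, 9 were called without WD, with Cd163 lost, and 4 by DESeq2. Haemoglobin transcripts also fell (Hbb-bs -1.62 ± 0.23), which are red cell RNA.

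Further groups are set beside the share over all genes tested, 4.68% higher and 3.82% lower. In lists as short as these, 0 or 1 calls lie near that share and are no result about the list. None of 10 MHC class II genes, none of 18 cytosolic ribosomal protein genes and none of the 3 genes of the sort gate (Ptprc, Itgam and Adgre1) passed the test, nor did any by DESeq2. The class II chain H2-Aa, for one, had 3364 (WD), 10075 (HFD) and 5115 CPM (CD) in monocytes, against 3644, 10584 and 6268 CPM in the C1q cells of the same libraries, a log2 difference of -0.34 ± 0.21. Of 17 NF-kB and inflammatory cytokine genes 1 rose (Cxcl3), and of 18 immediate early genes 2 rose (Nr4a1 and Nr4a2). Of 18 proliferation genes 9 fell and 0 rose, and none was called by DESeq2 or without WD. Ccnb2, a mitotic cyclin, had 4.68 (WD) and 3.72 CPM (CD) in monocytes, against 12.2 and 24.2 CPM in C1q cells. Of 15 glycolysis genes 6 rose and 1 fell, again with none by DESeq2 or without WD. Of 13 macrophage transcription factors 5 fell, with Spic, Nfatc2, Mef2c and Maf among them, and 1 rose (Id3), and of 18 monocyte transcription factors 4 rose (Irf7, Bhlhe40, Nr4a1 and Nfil3) and 1 fell (Klf2).

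**Figure D3:**
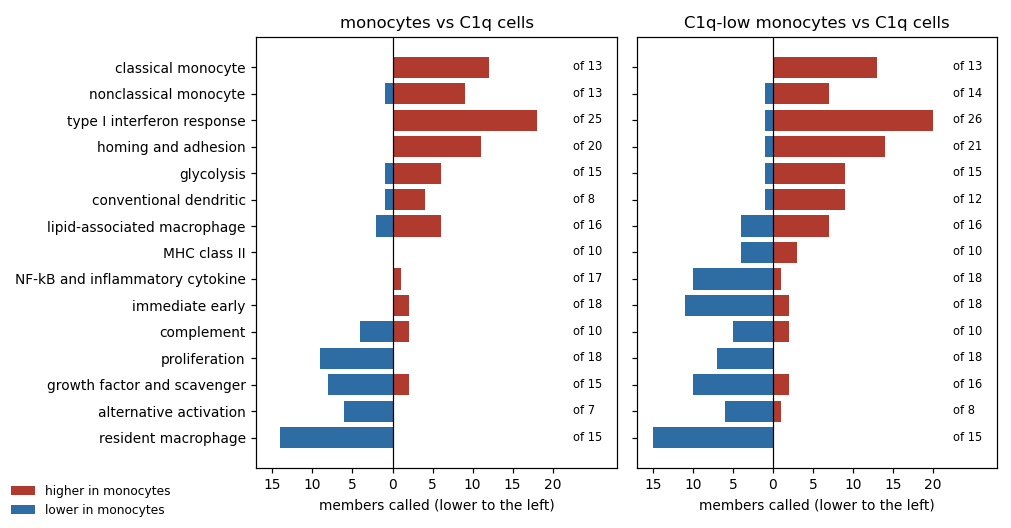
Number of genes called higher or lower (x axis) in each gene list (rows, with the number tested beside each), lower to the left and higher to the right, for all monocytes and for C1q-low monocytes against C1q cells, edgeR adjusted p under 0.05. In all monocytes, 12 of 13 classical monocyte genes rose and 14 of 15 resident macrophage genes fell.

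Many cells that met the rule also held C1q. C1q genes took a median of 0.318% of UMIs in WD monocytes, 0.566% in HFD and 0.954% in CD, against 0.808%, 2.25% and 2.18% in the C1q cells. Split at 0.3%, 107 WD, 2 HFD and 14 CD monocytes were C1q-low and 114, 3 and 49 were C1q-high. No C1q UMI was found in 11 WD monocytes (4.98%, interval 2.51 to 8.73). Between 0.2% and 0.4%, near the split, lay 29 WD, 0 HFD and 4 CD monocytes. C1q-high monocytes had medians of 33844.5 UMIs in WD and 8501 in CD, against 15792 and 5925 in C1q-low ones. Their median doublet score was 0.841 in WD and 0.782 in CD, against 0.663 and 0.654 in C1q-low monocytes and 0.587 and 0.615 in C1q cells, and 8 WD and 3 CD monocytes were marked as doublets. Near-empty barcodes held 3077 CPM of C1qa in HFD and 2467 CPM in CD, against 1709 and 3367 CPM in monocytes and 0 and 271 CPM in C1q-low monocytes, and WD has no such barcodes among those given. The part of doublets or free RNA in the C1q content was not otherwise tested.

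**Figure D4:**
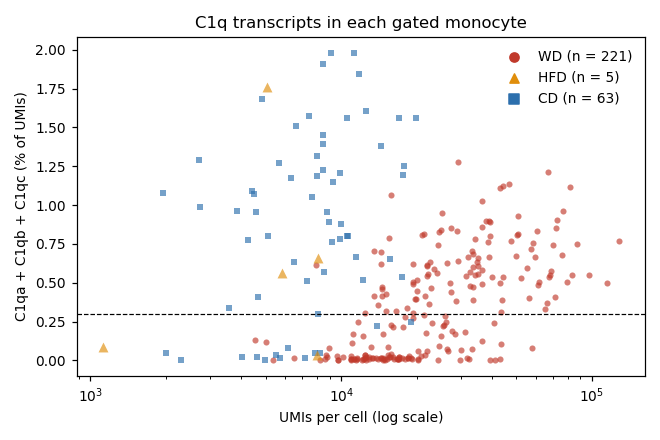
C1q genes as a percent of each monocyte's UMIs (y axis) against its UMIs on a logarithmic axis (x axis), 1 point a cell, for the 221 WD, 5 HFD and 63 CD monocytes, with the 0.3% limit as a dashed line. In WD, 107 cells lie under the line and 114 on or over it, and in CD 14 and 49.

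The C1q-low monocytes were compared with C1q cells in a model of 7 sums over 11687 genes, in which only WD and CD inform the monocyte terms because HFD split sums hold under 10 cells. Since the split uses C1q, lower macrophage genes go with the choice. In C1q-low monocytes 1089 genes rose (9.32%) and 1274 fell (10.9%; 20.2% in either direction), around a median of -0.06, and DESeq2 called 304 and 434. All 13 classical monocyte genes tested rose, also by DESeq2. Of 12 conventional dendritic cell genes 9 rose, among them Xcr1, Clec9a and Flt3, and 1 fell, at a median of 1.63, and DESeq2 called 2 higher. CD C1q-low monocytes held no UMI of Xcr1, Clec9a, Itgae or Dpp4. The dendritic list summed to 577 (WD) and 281.5 CPM (CD) in C1q-low monocytes, against 270 and 286 CPM in C1q cells. Of 14 nonclassical monocyte genes 7 rose and 1 fell, with 5 and 1 by DESeq2. Vcan had 371 (WD) and 10.1 CPM (CD) in C1q-low monocytes, 125 and 20.5 CPM in C1q-high monocytes, and 2.78 and 0.274 CPM in C1q cells, a log2 change over C1q cells of 6.95 ± 0.31. The CD level of C1q-low monocytes rests on 1 UMI. Plcb1, a phospholipase C of receptor signalling, had 958 (WD) and 40.2 CPM (CD) in C1q-low monocytes, 213 and 9.12 CPM in C1q-high monocytes, and 13.6 and 1.28 CPM in C1q cells, a change of 5.95 ± 0.32. Ccr2 had 573 (WD) and 855 CPM (CD) in C1q-low monocytes, 242 and 372 CPM in C1q-high monocytes, and 76.7 and 185 CPM in C1q cells, a change of 2.47 ± 0.22. Ifitm6 changed by 3.72 ± 0.22 and Ly6a by 3.20 ± 0.24, both also called by DESeq2, while the robust fit did not call Ly6a (adjusted p = 0.195). The other genes named as highest were Sirpb1c (4.24), Gpr141 (4.01), Thbs1 (3.86), Napsa (3.67), Gm5150 (3.62), Arhgap24 (3.48), Itgb7 (3.48), Slfn1 (3.36) and Gpnmb (3.21), as log2 changes over C1q cells.

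Resident macrophage genes were lower in these cells, and some were at or near 0 UMIs. Vsig4, a complement receptor of resident macrophages, had 1 UMI in WD and 0 in CD C1q-low monocytes, against 63.5 and 221 CPM in C1q cells. The lectin Cd209f had 0 UMIs in both, against 10.9 and 254 CPM in C1q cells. Folr2 had 27.2 (WD) and 10.1 CPM (CD) in C1q-low monocytes, 381 and 508 CPM in C1q-high monocytes, and 492 and 1119 CPM in C1q cells, a log2 change over C1q cells of -4.63 ± 0.30, and Lyve1 had 39.6 (WD) and 0 CPM (CD) in C1q-low monocytes, 527 and 175 CPM in C1q-high monocytes, and 739 and 377 CPM in C1q cells, a change of -4.50 ± 0.31. All 15 resident macrophage genes tested fell, also by DESeq2. The other genes named as lowest were Ccl8 (-4.70), the small heat shock protein Hspb1 (-4.70), Cbr2 (-4.57), Ltc4s (-4.48), the complement gene C4b (-4.16) and Gas6 (-4.13), which links dying cells to their receptors. The receptors Csf1r, for the macrophage growth factor CSF1, and Adgre1, which encodes F4/80, fell by 1.31 and 1.29 on the log2 scale. Adgre1 still stood at 168 (WD) and 191 CPM (CD). Itgam and Ptprc rose by 0.61 and 0.88.

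The C1q-low monocytes also had more of several metabolic and interferon genes. Of 15 glycolysis genes 9 rose and 1 fell, and DESeq2 called 6 higher. Pgk1, phosphoglycerate kinase, had 162 (WD) and 282 CPM (CD) in C1q-low monocytes, 67.6 and 116 CPM in C1q-high monocytes, and 36.9 and 105 CPM in C1q cells, and Pkm, pyruvate kinase, had 380.4 (WD) and 1237 CPM (CD) in C1q-low monocytes, 197 and 469.5 CPM in C1q-high monocytes, and 115 and 381 CPM in C1q cells. Of 26 type I interferon genes 20 rose and 1 fell (DESeq2 8 and 0). Of 10 MHC class II genes 3 rose and 4 fell, among them H2-Aa at -0.68 and the invariant chain Cd74 at -0.69. NF-kB genes fell in 10 of 18 and immediate early genes in 11 of 18, with 4 and 5 by DESeq2. Of 8 T cell genes 6 rose, on 46 Cd3d and 21 Trac UMIs in WD and none in CD, and the T cell list summed to 167 CPM in WD C1q-low monocytes against 38.4 CPM in WD C1q cells. Of 9 endothelial genes 4 rose (Flt1, Cdh5, Ly6c1 and Egfl7), 2 of them by DESeq2, and the endothelial list summed to 54.5 (WD) and 392.1 CPM (CD) in C1q-low monocytes, against 16.6 and 78.2 CPM in C1q cells. The part of T cell or endothelial RNA was not tested.

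Between C1q-low and C1q-high monocytes 256 genes rose in the C1q-low cells (2.19%) and 552 fell (4.72%; 6.91% in either direction), with a median of 0.00, and DESeq2 called 34 and 197. Of 13 classical monocyte genes 11 rose, and 15 of 15 resident genes fell. Vcan, one of the 11, had 371 CPM in C1q-low against 125 CPM in C1q-high monocytes of WD, and 10.1 (1 UMI) against 20.5 CPM in CD, and DESeq2 did not call it (adjusted p = 0.870). None of 14 nonclassical genes passed the test. Ly6a had 116 (WD) and 171 CPM (CD) in C1q-low monocytes, 42.3 and 38.7 CPM in C1q-high monocytes, and 6.90 and 39.2 CPM in C1q cells, and was called neither by DESeq2 (adjusted p = 0.214) nor by the robust fit. Cd209a, a lectin of monocyte-derived dendritic cells, had 171 (WD) and 171 CPM (CD) in C1q-low monocytes, 43.9 and 20.5 CPM in C1q-high monocytes, and 41.8 and 40.2 CPM in C1q cells, and differed by 2.11 ± 0.25 between C1q-low and C1q-high cells. Fabp5, a fatty acid carrier, differed by 1.86. Osteopontin (Spp1) differed by 2.66 ± 0.23, but 1 cell held 71.4% of the Spp1 UMIs of all CD monocytes and 1 held 24.0% in WD, and the robust fit did not call it (adjusted p = 0.510), while DESeq2 did. Haemoglobin Hbb-bs went opposite ways, with 62.7 CPM in C1q-low against 5.37 CPM in C1q-high monocytes of WD and 10.1 against 45.6 CPM in CD.

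**Figure D5:**
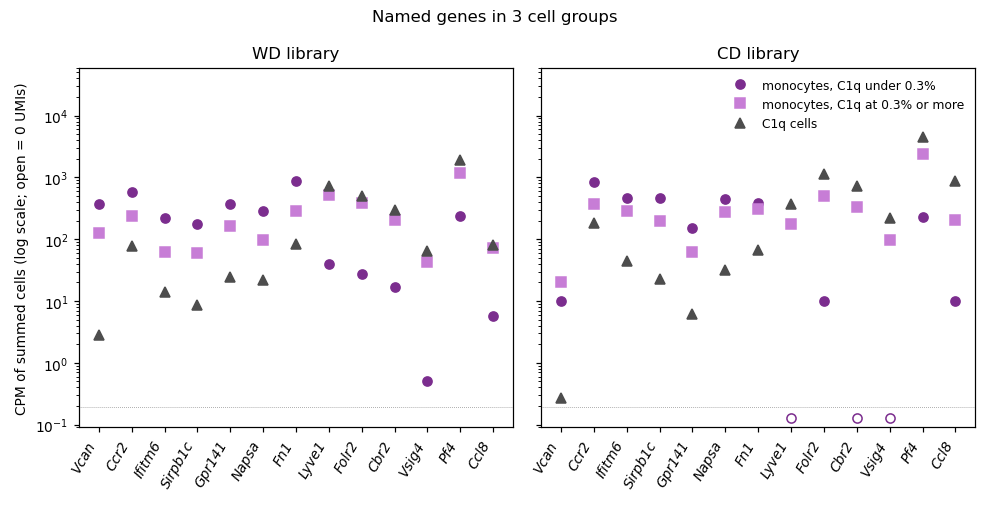
Level (CPM, logarithmic axis) of named genes in C1q-low monocytes, C1q-high monocytes and C1q cells, in panels for WD and CD. Open symbols stand for genes with 0 UMIs, and Ccr2 is highest in C1q-low monocytes while Folr2 and Lyve1 are highest in C1q cells.

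The 5 HFD cells are too few to describe as a group and are given singly. They had 8072, 8025, 5835, 5054 and 1119 UMIs, and 4, 3, 3, 3 and 3 genes of the rule. Their C1q content was 0.657%, 0.0374%, 0.566%, 1.76% and 0.0894%. All carried Ccr2, with 8, 7, 6, 10 and 9 UMIs. Ly6c2 had 1, 0, 2, 7 and 1 UMIs, and Plac8 had 1, 0, 9, 6 and 1. The first cell held 29 of the 33 Spp1 UMIs, and none held Ifitm6 or Vcan.

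Diets were compared as ratios of summed CPM with exact 95% intervals, which cover counting error between 2 libraries and not the conditions. In WD over CD monocytes, 3225 of 9843 genes were higher past 1.5-fold (32.8%) and 1804 lower (18.3%; 51.1% in either direction), around a median log2 of 0.31. Scaled by the median ratio the counts were 2638 and 2340, or 53.0% higher in place of 64.1%. In HFD over CD, 84 of 2404 were higher (3.49%) and 137 lower (5.7%, with 9.19% in either direction). In WD over HFD, 561 of 9687 were higher (5.79%) and 484 lower (5%). The median log2 of WD over HFD was -0.56 among the genes with UMIs in both libraries. Scaled by the median ratio, WD over HFD gave 1000 and 231, or 81.2% higher in place of 53.7%. The medians and the scaling leave out genes with no UMI in 1 of the libraries. These were 5351 of the 9687 genes for WD over HFD, with no UMI in HFD monocytes, and 596 of 9843 for WD over CD. For WD over HFD both thus rest on genes detected in the 5 HFD cells, a choice that favours lower ratios. With cells weighted equally, HFD over CD gave 177 and 154, or 53.5% higher in place of 38.0%. Of 7073 genes, 655 (9.26%) had a WD over CD ratio in monocytes that differed from that in C1q cells past 1.5-fold. For HFD over CD these were 154 of 728 (21.2%), and for WD over HFD 138 of 728 (19%). They need at least 5 UMIs in each sum used, so their shares and those of the plain ratios are not like for like. Library, software version and diet cannot be told apart.

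At the ends of the WD over CD ratios stood genes whose ratio in C1q cells ran the same way. Prkg1, a cGMP-dependent kinase, had 454 UMIs in WD and 0 in CD monocytes, at least 12.7-fold higher (a floor of 3 counts), and its C1q-cell ratio was 597. Rfx3, a transcription factor, was 12.3-fold higher on the same floor, with a lower limit of 9.97-fold and a C1q-cell ratio of 27.1. Ly6c1, the near-identical neighbour of Ly6c2, had 5 UMIs in WD (0.780 CPM) and 28 in CD (52.0 CPM), 66.7-fold lower, with a C1q-cell ratio of 0.0292. Reads of Ly6c1 and Ly6c2 could be split between the pair by the counting, so their levels are uncertain.

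Some genes had a WD over CD ratio in monocytes that parted from that in C1q cells. Ifit1 was at 75.2 CPM in WD and 31.6 CPM in CD monocytes, a ratio of 2.38 (1.47 to 4.12), while in C1q cells the ratio was 0.550, so that the ratio of ratios was 4.32 (2.61 to 7.15). Ly6a stood at 64.6 CPM in WD and 63.2 CPM in CD, a ratio of 1.02 (0.720 to 1.496), against 0.176 in C1q cells. Ass1, the arginine-making enzyme argininosuccinate synthase, was at 43.0 CPM in WD and 27.9 CPM in CD, against a C1q-cell ratio of 0.243. Spp1 was at 90.5 CPM in WD and 182 CPM in CD, a ratio of 0.497 that turned to a log2 of 0.11 when every cell weighed the same. In the other direction, Cd207, a lectin of Langerhans cells and some macrophages, was at 0.780 CPM in WD and 48.3 CPM in CD, 61.9-fold lower, with a C1q-cell ratio of 0.448.

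Gene groups are given with their medians in monocytes and then in C1q cells. A member counts if it had at least 20 UMIs over the 2 monocyte sums and at least 1 in each. For HFD over CD this keeps only genes detected in the 5 HFD cells, 7 of 11 MHC class II and 11 of 18 immediate early genes. That choice favours higher HFD ratios. Over all genes with at least 30 UMIs, 32.8% were higher and 18.3% lower for WD over CD, and 3.49% and 5.7% for HFD over CD. Those shares keep genes with no UMI in 1 library, so they are no matched background for the counts below. For WD over CD, 12 of 25 type I interferon genes were higher and 2 lower, at a median log2 of 0.56 in monocytes and 0.34 in C1q cells. NF-kB and inflammatory cytokine genes were higher in 13 of 16, at a median of 1.75 in monocytes and 2.15 in C1q cells, and immediate early genes in 13 of 18, at 1.29 and 1.27. Lysosomal proteases were lower in 11 of 13, at a median of -0.90 in both monocytes and C1q cells, and lipid-associated macrophage genes in 12 of 16, at -0.96 and -1.40. Classical monocyte genes outside the rule split evenly, with 4 of 13 higher, near the share over all genes, and 4 lower, at 0.03 and -0.19. For HFD over CD, 6 of 7 MHC class II genes were higher, at a median of 0.92 in monocytes and 0.66 in C1q cells, and 9 of 11 immediate early genes lower, at -2.71 and -1.25, on 5 cells. Spp1 had a ratio of 6.45 (4.21 to 9.66) there, from the 1 cell named above. The macrophage gene Ms4a7 had a ratio of 4.16 (2.89 to 5.85), on 41 UMIs in HFD and 189 in CD.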

How the data were processed

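Droplet-based 3′ single-cell RNA sequencing was made of heart cells sorted for CD45, F4/80 and CD11b, with 1 library each for WD, HFD and CD. The authors deposited raw UMI counts per gene and barcode, with no normalization. Per the file headers, they came from alignment software 7.2.0 (WD; 6885 barcodes) and 3.0.1 (HFD and CD; 737280 barcodes each), and per the submitters' processing notes from GRCm38. The sources used here do not state whether intronic reads were counted. The labels name the v2 kit for all libraries, while few WD barcodes lie in the CD list. Library totals and depth are in the report, and intervals and floors of 3 counts cover counting error only.

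From the counts, 30406 genes shared by the 3 files were kept. Members and lists (43, of which 17 hold cell type markers) were chosen with earlier results of these data known. Counts were summed per library over monocytes and over C1q cells and tested with edgeR 4.0.16 in R 4.3.3 (quasi-likelihood, library as block, Benjamini-Hochberg adjustment, threshold 0.05). The library is a block because both sums of a library come from the same droplets and animals. The C1q-low comparisons used 7 sums with 2 residual degrees of freedom, and sums of under 10 cells were left out. The p-values use spread between 3 libraries of 3 diets, and in the C1q-low comparisons between WD and CD alone. That spread is 1 trend shared by all genes. A p-value therefore does not measure how well a single gene repeated between libraries. DESeq2 1.42.0, other scalings, filters, cell limits and left-out libraries were alternatives. Diets have 1 library each, so they were compared by CPM ratios with exact 95% intervals and a limit of 1.5-fold. Named genes were the 14 higher and 10 lower with the largest change among those called, moved the same way in every library, listed nowhere in the rule, and at 50 CPM or more, with up to 4 called and 2 uncalled members of each list; genes named beside counts of 5 or fewer, and T cell genes, were named after their values were seen. Doublet scores were computed from simulated doublets with scikit-learn 1.9.0 and marked 182 WD, 59 HFD and 57 CD cells, which stayed in. Tested on simulated data with known changes, the monocyte fit found 78.4% of 4-fold and 11.5% of 2-fold changes, with 2 false calls among 10467 unchanged genes. For C1q-low monocytes against C1q cells it found 63.3% and 8.08%, and for C1q-low against C1q-high monocytes 53.6% of 4-fold and 0% of 2-fold changes. The simulated counts had 1 spread for all genes, much as the fit assumes. These rates therefore do not cover genes with a spread of their own. Whether the rates hold for the measured counts was not tested.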

Additional observations from a re-analysis of the deposited data

Results flagged for a closer look

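For 9 genes the log2 difference of monocytes over C1q cells ran in opposite directions between libraries, with counting intervals that left out no change in each direction. All 9 are members of the chosen gene lists, and a count over all genes tested is not given. The difference between libraries was not tested, and the HFD values rest on 5 cells. Actin (Actb) was at 0.31 in WD and 0.13 in CD and at -1.17 in HFD. The lipoprotein gene Apoe was at 0.34 in HFD, -0.59 in WD and -0.84 in CD. The caspase Casp4 was at -0.62 in WD and 0.71 in CD. Fabp4, a fatty acid carrier, was at 0.34 in WD, -3.00 in HFD and 1.04 in CD. The Fc receptor chain Fcer1g was at 0.27 in WD, -0.30 in HFD and 0.36 in CD. The immediate early genes Fos and Junb were at -0.32 and -0.26 in WD and at 0.17 and 0.18 in CD. Ifitm2 was at 0.13 in WD and -0.62 in HFD. Ms4a7 was at -0.22 in WD, 1.18 in HFD and -0.69 in CD.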

How the results depend on the processing

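Shares of monocytes moved with depth and with the rule. With 4 genes required the share was 2.81% in WD and 0.0368% in HFD, with at most 5% mitochondrial UMIs it was 5.89% in WD, and after thinning it was 1.09% in WD, 0.0368% in HFD and 0.933% in CD. Leaving out 1 library at a time, monocytes against C1q cells gave 62 to 654 higher and 28 to 717 lower genes. DESeq2 gave 82 and 16 there, 304 and 434 for C1q-low monocytes against C1q cells, and 34 and 197 against C1q-high monocytes. Without the replicate block edgeR called 0 in each comparison, while unadjusted p-values under 0.05 numbered 143 and 113, 295 and 507, and 21 and 220. Lower genes in monocytes numbered 691 with DESeq2's size factors, 909 with no filter on low counts, 663 with 4 genes required, 655 with the rule on thinned cells and 913 with C1q-low monocytes alone. The C1q-low fits could be repeated without HFD (955 higher and 1451 lower, and 249 and 597) and not without WD or CD, which leaves no residual degrees of freedom.

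Directions changed in few cases, and the cause was not tested. In monocytes over C1q cells these were Bhlhe40 (-0.25), Ly6c1 (-0.42) and Spp1 (-0.13) with the rule on thinned cells, and, leaving out 1 library at a time, Cfb (-0.81 to 1.67) and Ifitm1 (-0.080 to 0.87), both lowest without WD. In C1q-low monocytes they were Cxcl1 by DESeq2 (0.54) and with no block (0.21), and H2-DMb2 with no block (-0.018). Spp1 in WD over CD gave 0.11 with cells weighted equally and 1.36 with cells thinned, and in HFD over CD -0.77 in C1q-low monocytes, where Cd81 gave 0.33.

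Counts past 1.5-fold between diets moved with the cells used. WD over CD gave 2685 with the rule on thinned cells, 2415 in C1q-low monocytes (351 relative to C1q cells) and 989 with cells thinned (153 relative to C1q cells). HFD over CD gave 111 with 4 genes (63 relative), 63 on thinned cells (34), 100 in C1q-low monocytes (49) and 31 with cells thinned (21), and 360 relative to C1q cells with cells weighted equally. WD over HFD gave 349 (64), 222 (39), 361 (52), 135 (27) and 408 under the same settings. The 5 HFD cells limit every value that uses them.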
